A study of Rattus norvegicus with 8 samples.

Results

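The array data on 10 neuropeptide genes of the spinal dorsal horn were examined in control rats and in rats that underwent chronic water avoidance (WA) stress. The genes were Npy, Sst, Cck, Gal, Nts, Grp, Vip, Trh, Nmu and Adcyap1, and they were taken by name from the gene column of the array files. No measured value entered that rule, but the genes were chosen with earlier results of these data known. They are carried by 13 of the 30367 probes on the array, 2 each for Npy, Gal and Nmu and 1 for each of the other genes. All 13 probes were well above background on all 8 arrays, none was saturated, and all 10 genes were therefore among the 23678 probes tested. The samples were total RNA of the lumbar L6S1 spinal cord, without meninges, of 4 stressed and 4 control male Wistar rats aged 12 weeks, with 1 array per rat. WA stress, in which a rat stands on a small platform surrounded by water for 1 h a session, was given on 10 days, and the tissue was taken 24 h after the last session. By the paper's account the controls were handled for 10 days, and they received no WA stress. The labels gave no other difference between the groups.

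Neuropeptides are made as longer precursors that are cut in secretory granules, and they act on G protein-coupled receptors more slowly and over a wider area than glutamate or GABA. In the superficial dorsal horn, where pain and itch fibres end, single peptides mark sets of local neurons. NPY is made mainly by inhibitory cells there, neurotensin, gastrin-releasing peptide and cholecystokinin by excitatory cells, and somatostatin mainly by excitatory cells. An RNA measurement of the cord reads cell bodies and glia of the cord itself, whereas much of the peptide in its nerve endings comes from sensory ganglia and the brainstem.

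Control rat 2 stood apart within its group. In a principal component analysis of all tested probes it scored -46.1 on the first component, beside the stressed rats (-34.5 to -8.23) and far from the other 3 controls (39.4 to 56.2). The 5′ minus 3′ difference of probe pairs of the same transcript, a measure that moves with RNA degradation and labelling, was 0.22 on its array, 0.09 to 0.17 on the stressed arrays and -0.30 to -0.18 on the other control arrays. The 8 arrays shared 1 slide, on which stressed rats filled one row and controls the other, so that row and stress cannot be told apart. The signal at the 75th percentile was 1751 to 1945 in stressed and 1841 to 2335 in control rats. Values below are log2 signals minus the log2 of that percentile on the same array.

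The probes show which part of each message was read. They are 60 bases long, and the files place them on the rn4 assembly. For Npy, 1 probe lies in the coding part (position 279 of the transcript, chr4:78043176-78043235, plus strand) and the brighter probe at the 3′ end (position 476, chr4:78045125-78045184). The first is shown whole, with its open reading frame in capitals, which codes for a stretch of the flanking peptide cut from the NPY precursor. Of the second, and of the probe of Sst (position 504, chr11:79126157-79126216), the last 30 bases are shown with the polyadenylation hexamer in capitals.
Npy, coding probe: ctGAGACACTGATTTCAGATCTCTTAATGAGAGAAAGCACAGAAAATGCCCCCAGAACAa
Npy, 3′ probe: tatatgtgtgtttaAATAAAgtatcatgca
Sst: aatacaaAATAAAattatggtgaaattatg

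For Gal, the less bright probe (position 387, chr1:205937849-205937908, minus strand) is coding throughout and reads the message-associated peptide that follows galanin in the precursor. The Nts probe (position 494, chr7:40474898-40474957, minus strand) reads into the active peptides, covering neuromedin N whole and neurotensin in part. Its capitals mark the codons of neuromedin N and, after the pair of basic residues where the precursor is cut, those of the first residues of neurotensin. The Trh probe lies far downstream (position 1130, chr4:126425344-126425403, minus strand), and its first 30 bases are shown because Trh was the only gene of the 10 whose groups did not overlap.
Gal, coding probe: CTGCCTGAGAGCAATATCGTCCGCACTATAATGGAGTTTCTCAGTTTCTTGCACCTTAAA
Nts: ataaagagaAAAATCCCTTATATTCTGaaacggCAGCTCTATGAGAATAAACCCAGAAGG
Trh: ctcagaaaggaagggtagaattgaaatgtt

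None of the 10 genes differed between stressed and control rats at FDR below 0.1 in limma, where 3.74% of all tested probes passed (2.77% with a higher and 0.971% with a lower signal after stress). At FDR below 0.05, which 0.477% of probes passed, the count was also 0. At an unadjusted p below 0.05, which 20.3% of probes met, 1 of the 10 genes was counted, Trh. The stressed and control values did not overlap for the same gene alone, against 12.1% of all tested probes. The mean was higher in stressed rats for 5 genes and lower for 5, with a median difference of -0.04 on the log2 scale, whereas over all tested probes the median was 0.06 and 59.6% were higher. The balance depended on the scaling, since with quantile normalization 3 of the 10 genes were higher and 7 lower, the median over all probes was -0.03, and the probes called were 618 higher and 633 lower in place of 655 and 230. In tissue RNA of this kind, fewer cells of a type and less RNA per cell cannot be told apart.

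**Figure D1:**
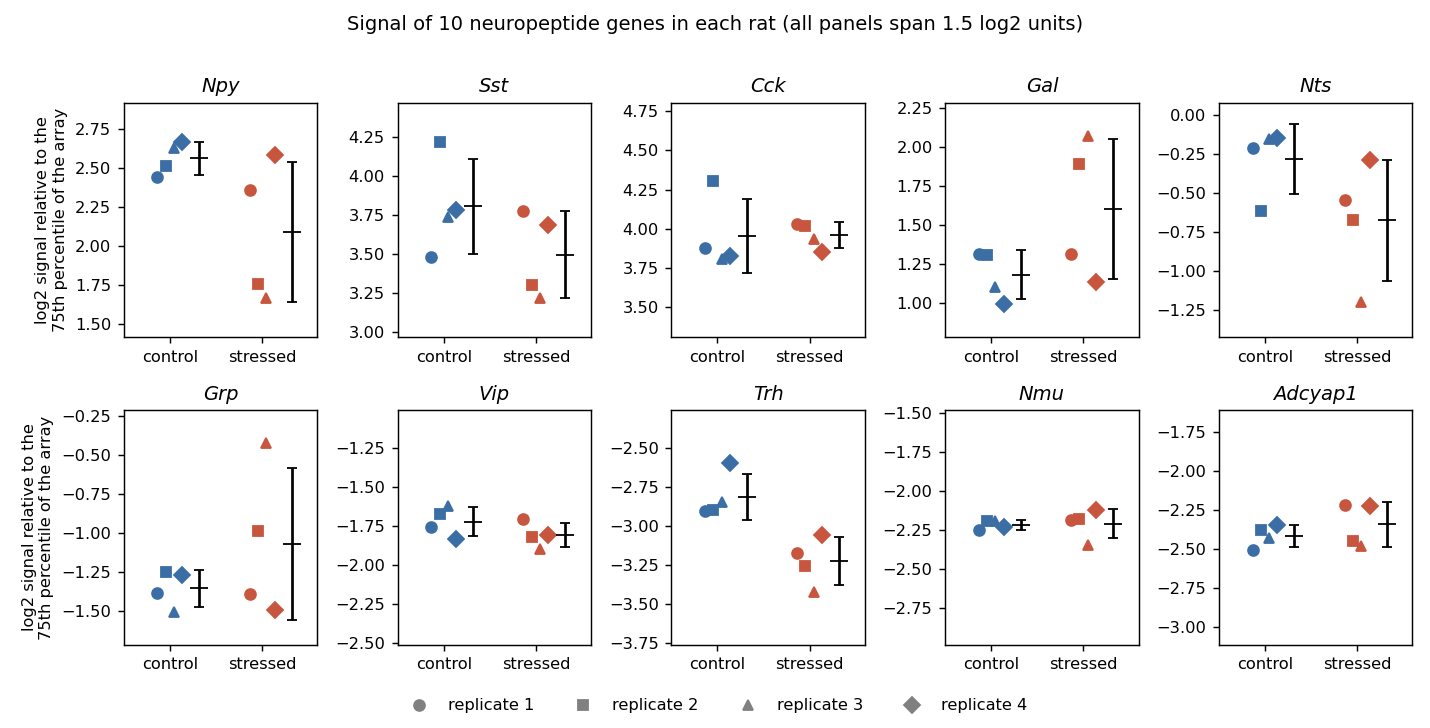
Scaled log2 signal (y axis, with the 75th percentile of each array at 0) for each of the 10 genes, in 4 control (blue) and 4 stressed (red) rats. Symbols give the replicate number, bars the mean ± SD, and every panel spans the same range. For Npy, Gal and Grp stressed rats 2 and 3 lie apart from stressed rats 1 and 4, and for Trh all 4 stressed rats lie below all 4 controls.

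Trh, the precursor of thyrotropin-releasing hormone, a releasing factor of the hypothalamus that in the cord is best known from descending raphe fibres, was lower in every stressed rat. Its log2 signal was -2.90, -2.90, -2.85 and -2.60 in control rats 1 to 4 and -3.17, -3.26, -3.42 and -3.05 in stressed rats 1 to 4. The highest stressed rat lay below the lowest control. The difference was -0.41 ± 0.11 (SE, n = 4 per group; 95% interval -0.66 to -0.16), which is 0.75 of the control signal. In limma the unadjusted p was 0.0051, rank 1081 of the tested probes, and the adjusted p was 0.112. The exact two-sided permutation test over the 70 choices of 4 of 8 rats gave 0.0286, the smallest value that it can give.

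The adjusted p of Trh lay close to the threshold, and the side on which it fell varied. It passed in 5 of 19 fits, those with quantile normalization (-0.58, adjusted p = 0.088 in limma), dim probes kept (0.089), probes detected on all 8 arrays alone (0.097), array weights (0.0080) and without control rat 2 (-0.44, adjusted p = 0.025). The difference was between -0.58 and -0.31 in all 19. The number of probes called also rose in each of these fits, to 10036 without control rat 2 and 11983 with array weights. Array weights gave control rat 2 a weight of 0.107. With a covariate for the 5′ minus 3′ difference, Trh was at -0.37 (adjusted p = 0.188 in limma), in a fit that called 2393 probes.

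**Figure D2:**
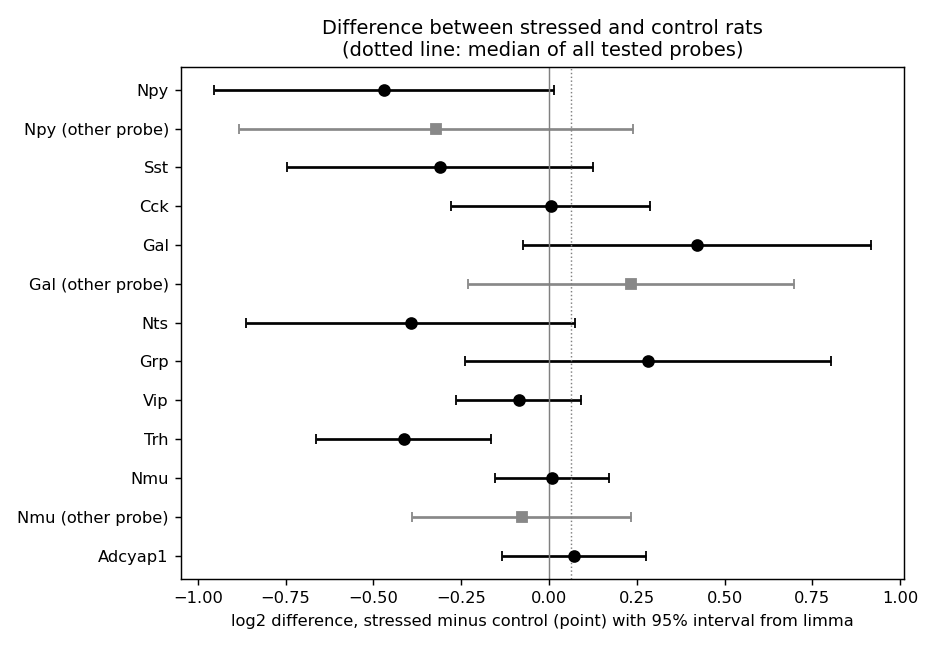
Difference in log2 signal, stressed minus control (x axis), with its 95% interval from limma, for the 10 genes (black) and for the other probe of Npy, Gal and Nmu (grey). The interval excludes 0 for Trh alone, and the dotted line marks the median over all tested probes at 0.06.

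Npy codes for neuropeptide Y, an inhibitory peptide of the superficial dorsal horn that dampens pain and itch signals. The 3′ probe, which has 10 spots on each array, read 2.44, 2.51, 2.63 and 2.67 in control rats 1 to 4 and 2.36, 1.75, 1.67 and 2.58 in stressed rats 1 to 4. The controls lay close together, stressed rats 2 and 3 lay well below them, and stressed rat 4 lay within their range. The difference of -0.47 ± 0.21 (SE; 95% interval -0.95 to 0.01) had an adjusted p of 0.256 in limma and p = 0.086 in the exact permutation test. The SD among stressed rats was 0.45, against 0.10 among controls. Repeated spots of the probe on 1 array had an SD of 0.056, which covers measurement on the array alone.

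The coding probe of Npy gave the same picture of the rats. It read 0.51, 0.42, 0.66 and 0.73 in control rats 1 to 4 and 0.60, -0.05, -0.31 and 0.79 in stressed rats 1 to 4, with stressed rats 2 and 3 again the lowest. Its difference was -0.32, adjusted p = 0.467 in limma. After centring each probe on its mean over the 8 rats, the 2 probes of Npy differed by at most 0.18 in any rat.

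Sst codes for somatostatin, which in the dorsal horn is released mainly by excitatory interneurons of the mechanical pain circuit. Its log2 signal was 3.48, 4.22, 3.73 and 3.78 in control rats 1 to 4 and 3.78, 3.30, 3.22 and 3.68 in stressed rats 1 to 4. Stressed rats 2 and 3 were the lowest of the 8 and control rat 2 was the highest, and the groups overlapped. The difference was -0.31 ± 0.19 (SE; 95% interval -0.75 to 0.13), with an adjusted p of 0.375 in limma and an exact permutation p of 0.171. It was -0.17 without control rat 2 (adjusted p = 0.452) and -0.62 with a covariate for the 5′ minus 3′ difference (adjusted p = 0.137).

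Nts codes for the precursor of neurotensin and neuromedin N, peptides of excitatory dorsal horn neurons that inhibit or facilitate nociception by dose and site. It read -0.21, -0.62, -0.15 and -0.14 in control rats 1 to 4 and -0.54, -0.67, -1.20 and -0.29 in stressed rats 1 to 4. Stressed rat 3 was far below the others, and the overlap of the groups rested on control rat 2, whose value lay below those of stressed rats 1 and 4. The difference was -0.39 ± 0.20 (SE; 95% interval -0.86 to 0.07), with an adjusted p of 0.308 in limma and an exact permutation p of 0.114. Without control rat 2 it was -0.51 with an adjusted p of 0.096, and without stressed rat 3 it was -0.22 with an adjusted p of 0.512. With the 5′ minus 3′ covariate it was -0.11 (adjusted p = 0.823), the smallest of the 19 fits.

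Gal codes for galanin, a mostly inhibitory peptide of dorsal horn interneurons that sensory neurons raise strongly after nerve injury. Its brighter probe, also with 10 spots per array, read 1.32, 1.31, 1.10 and 0.997 in control rats 1 to 4 and 1.32, 1.89, 2.07 and 1.13 in stressed rats 1 to 4. Stressed rats 2 and 3 were above all other rats, and stressed rats 1 and 4 were within or beside the control range. The difference was 0.42 ± 0.21 (SE; 95% interval -0.07 to 0.92), a ratio of 1.34, with an adjusted p of 0.302 in limma and an exact permutation p of 0.114. Without stressed rat 3 it was 0.27 (adjusted p = 0.522).

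The coding probe of Gal placed the stressed rats in a like way, with a larger SD among controls (0.27 against 0.16) and a smaller one among stressed rats (0.35 against 0.45). It read 1.44, 0.79, 1.12 and 1.06 in control rats 1 to 4 and 1.08, 1.64, 1.64 and 0.99 in stressed rats 1 to 4. Stressed rats 2 and 3 were again the highest. Its difference was 0.23 (adjusted p = 0.522 in limma), and after centring the 2 probes of Gal differed most, by 0.34, in control rat 2.

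Grp codes for gastrin-releasing peptide, a peptide of excitatory interneurons that carry itch signals. Its log2 signal was -1.39, -1.25, -1.51 and -1.27 in control rats 1 to 4 and -1.39, -0.98, -0.42 and -1.49 in stressed rats 1 to 4. As for Gal, stressed rats 3 and 2 were the highest of the 8 while stressed rats 1 and 4 fell in the control range. The difference was 0.28 ± 0.23 (SE; 95% interval -0.24 to 0.80), with an adjusted p of 0.492 in limma and an exact permutation p of 0.343. Without stressed rat 3 it was 0.06, so that most of it rested on that rat, and with the 5′ minus 3′ covariate it was 0.14.

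**Figure D3:**
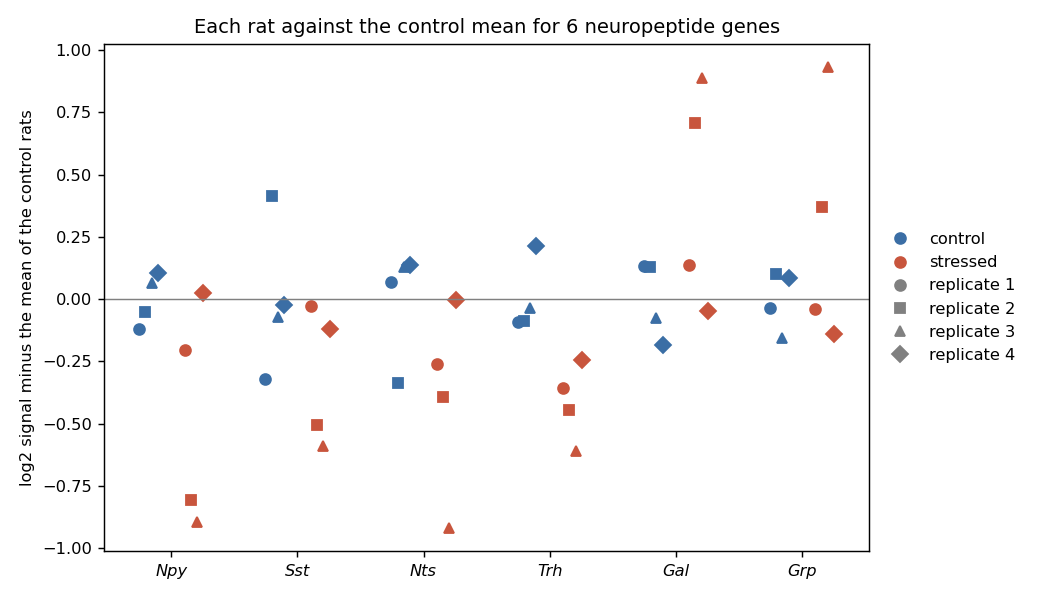
Log2 signal of each rat minus the mean of the 4 control rats (y axis) for the 6 genes with the largest differences. Blue points are control and red points stressed rats, with a symbol for each replicate number. Stressed rats 2 (squares) and 3 (triangles) are the lowest 2 stressed rats for Npy, Sst, Nts and Trh and the highest 2 for Gal and Grp.

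Stressed rat 3 carried much of the spread in these genes. It had the lowest value of the 8 rats for Npy, Sst, Nts, Vip, Trh and Nmu and the highest for Gal and Grp, so that it was at one end for 8 of 10 genes, while it was at one end for 26.5% of all tested probes. For the other arrays this number was 0 to 4 of 10 genes. Control rat 2, which was at one end for 47.0% of tested probes, was so for 2 of the 10 genes, as the highest for Sst and Cck. Genes of 1 array are not independent of each other, so these counts describe the rat and were not tested.

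Other markers in stressed rat 3 are given beside these values. The summed linear signal of sensory neuron markers, with the 75th percentile of the array as 1, was 12.0. It was the lowest of the 8 rats (control 19.1 to 25.9, other stressed rats 15.8 to 23.2). These markers were chosen for neurons of the dorsal root ganglia, whose cell bodies lie outside the cord. The sum is therefore no measure of sensory neuron content. Calca, the marker that leads this list, was at 2.81 in that rat and at 3.35 to 4.14 in the others. The sum of motor neuron markers was also the lowest (2.40). The sums of markers of excitatory neurons (20.4, others 16.4 to 19.1), astrocytes (65.8), endothelial cells (3.76) and red blood cells (98.7) were the highest of the 8, and the sum for inhibitory neurons (39.1) lay within the control range of 38.1 to 39.7. A linear sum follows its brightest markers. Slc17a6, which leads the excitatory list, was lower on average in stressed rats, none of which lay above its control range (values below). Of the 7 excitatory markers, 4 were higher and 3 lower in stressed rats. The part of these values in the neuropeptide signals was not tested.

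Cck codes for cholecystokinin, which opposes opioid analgesia in the cord. It read 3.87, 4.30, 3.81 and 3.83 in control rats 1 to 4 and 4.03, 4.02, 3.94 and 3.85 in stressed rats 1 to 4. Control rat 2 lay above all others, and the remaining 7 rats lay close together. The difference was 0.0046 ± 0.12 (SE; 95% interval -0.28 to 0.29), with an adjusted p of 0.987 in limma, and its sign turned in 6 of the 19 fits. It was -0.26 with the 5′ minus 3′ covariate (adjusted p = 0.116 in limma) and 0.14 with array weights (adjusted p = 0.105). Those fits called 10.1% and 50.6% of all tested probes.

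Vip and Adcyap1 code for the related peptides VIP and PACAP, which are abundant in visceral afferents and autonomic pathways of the lumbosacral cord. Vip read -1.75, -1.67, -1.62 and -1.83 in control rats 1 to 4 and -1.70, -1.82, -1.89 and -1.81 in stressed rats 1 to 4. Adcyap1 read -2.50, -2.37, -2.43 and -2.34 in control rats 1 to 4 and -2.22, -2.45, -2.48 and -2.22 in stressed rats 1 to 4. In both genes the groups overlapped and the range over the 8 rats was small. The difference was -0.09 ± 0.08 for Vip (SE; 95% interval -0.26 to 0.09, adjusted p = 0.535 in limma). For Adcyap1 it was 0.07 ± 0.09 (SE; 95% interval -0.13 to 0.28, adjusted p = 0.659 in limma).

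Nmu codes for neuromedin U, a peptide named for its action on the uterus that also excites nociceptive neurons of the dorsal horn. The brighter probe read -2.25, -2.19, -2.19 and -2.23 in control rats 1 to 4 and -2.19, -2.18, -2.34 and -2.12 in stressed rats 1 to 4. The values of the 2 groups lay on top of each other, with a difference of 0.0086 ± 0.07 (SE; 95% interval -0.15 to 0.17, adjusted p = 0.954 in limma). The other probe gave -0.08 (adjusted p = 0.758 in limma). For Cck, Vip, Nmu and Adcyap1 the 95% intervals stayed within 0.29 log2 units of 0, whereas those of Npy, Sst, Nts, Gal and Grp reached 0.75 to 0.95 on one side.

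**Figure D4:**
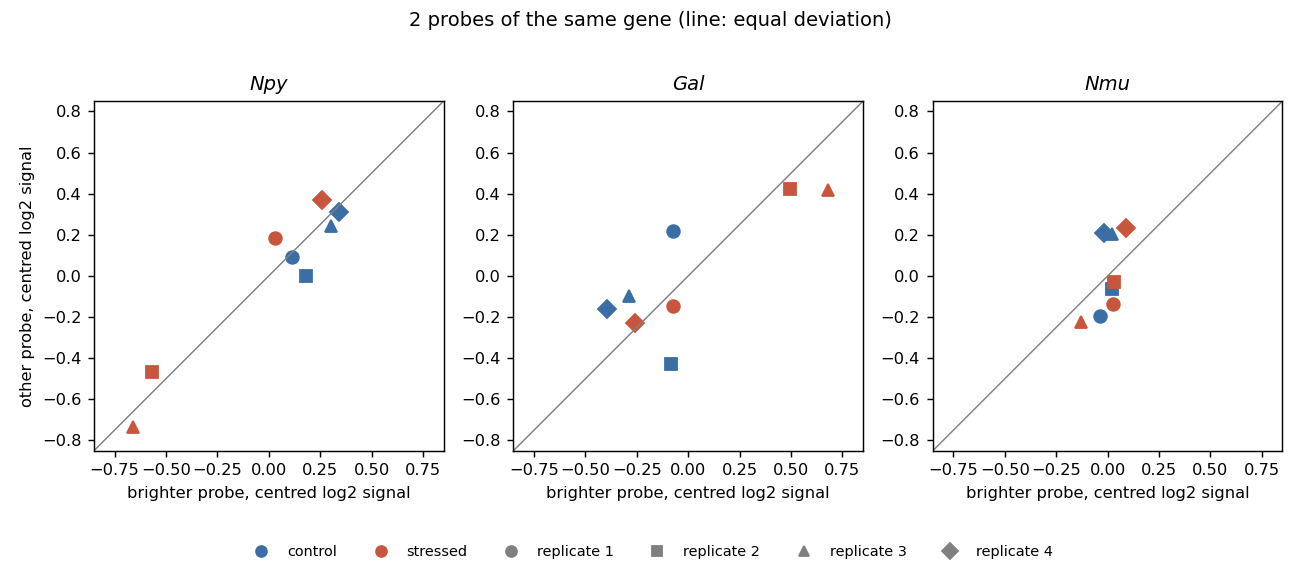
Log2 signal centred on the mean over the 8 rats for the brighter probe (x axis) and the other probe (y axis) of Npy, Gal and Nmu, with 1 symbol per rat and the line of equal deviation. Both probes of Npy and of Gal set stressed rats 2 and 3 apart, whereas the brighter probe of Nmu hardly varied.

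The profile of each gene over the 8 rats was set beside those of all other named genes by the mean absolute difference of the centred log2 signals. Of 13417 gene symbols, the closest to Npy was Tac2, the rat gene for neurokinin B, itself a peptide of dorsal horn excitatory neurons. The mean absolute difference was 0.069, where Npy itself deviated from its mean by 0.307 on average, and Tac2 differed between the groups by -0.37 (adjusted p = 0.281 in limma). Rprml was almost as close to Npy, at 0.070, so Tac2 was not singled out. The closest to Trh was Spire2, an actin nucleation factor (0.043, where Trh deviated by 0.207), and to Nts it was Rics (0.061, where Nts deviated by 0.280). For Gal it was Hspa1b, an inducible heat shock protein of the Hsp70 family, at 0.097, for Grp it was Art3 at 0.092 and for Sst it was Mov10 at 0.092. The genes that varied least had closer neighbours, Ap3d1 for Cck (0.024), Scnm1 for Nmu (0.025), Rps25 for Vip (0.036) and Cadm2 for Adcyap1 (0.043). The profiles rest on 8 arrays that share the slide and the differences between arrays given above.

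Of the receptors of these peptides, 1 of 22 tested genes was higher in stressed rats at FDR below 0.1 and none was lower. Of all tested probes, 2.77% were called higher and 0.971% lower, so a single call in a list this short says little about the list. The list holds 26 symbols, of which 25 have a probe, and its median difference was -0.09, with 7 genes higher and 15 lower. The gene that passed was Ppyr1, the Y4 receptor, which binds pancreatic polypeptide better than NPY. It read -3.95, -4.32, -4.06 and -4.22 in control rats 1 to 4 and -3.48, -3.70, -3.36 and -3.67 in stressed rats 1 to 4. All stressed rats lay above all controls. The difference was 0.59 ± 0.11 (SE), with an adjusted p of 0.070 in limma. That call held in 9 of 19 fits. It was lost with a normexp background correction (0.40, adjusted p = 0.365), with quantile normalization and with a block for the replicate number. It was also lost on leaving out any 1 rat other than control rat 2. With quantile normalization the 1 receptor called was a gene lower in stressed rats. Repeated spots of the Ppyr1 probe on 1 array had an SD of 0.178, against 0.163 between rats of a group.

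Among the receptors for NPY that are known from dorsal horn neurons, Npy1r, the Y1 receptor, differed by -0.24 (adjusted p = 0.579 in limma). The brighter of 2 probes of Npy2r, the Y2 receptor, has 1 spot, passed background on 3 control arrays but 0 stressed ones and was not tested. Its signals were dim and overlapped, at 4.47 to 17.4 in stressed and 12.6 to 17.1 in control rats before scaling. Stressed rat 4 was the brightest of the 8, and the exact permutation p was 0.657. The probes of Grpr, the receptor for gastrin-releasing peptide on itch neurons, and of Nmur2, a neuromedin U receptor, were not well above background on any array. Of the other receptors, Ntsr2, a neurotensin receptor found mainly on astrocytes, had the largest difference at 0.52 (adjusted p = 0.174), and Galr2 (-0.19, adjusted p = 0.198) had groups that did not overlap. Sstr3, a somatostatin receptor, differed by -0.20 (adjusted p = 0.271).

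Of 17 genes that cut, amidate, store or degrade peptides, 15 were tested, 1 was lower in stressed rats and none was higher, with a median of -0.06. Beside this count, 0.971% of all tested probes were called lower and 2.77% higher. The gene called was Scg2, which codes for secretogranin II, a protein of the dense-core granules in which neuropeptides are stored. Scg2 read 3.49, 3.52, 3.48 and 3.46 in control rats 1 to 4 and 3.05, 3.00, 3.01 and 3.22 in stressed rats 1 to 4. Every stressed rat lay below every control, and control rat 2 lay with the other controls. The difference was -0.42 ± 0.07 (SE), with an adjusted p of 0.058 in limma, and it lay between -0.47 and -0.39 in all 19 fits. Scg2 passed in 12 of them, with an adjusted p of up to 0.211, and in 2 of the 8 that leave out 1 rat (0.0059 without control rat 2). The others of smallest p were Scg3, a granule sorting protein, at 0.25 (adjusted p = 0.226), Mme, the peptidase neprilysin, at -0.34 (adjusted p = 0.261) and Cpe, the carboxypeptidase that trims cut precursors, at -0.16 (adjusted p = 0.384).

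Peptide genes of the same families gave no call. Of 9 genes, 8 were tested, with a median of 0.04 and 5 higher and 3 lower. Cort, which codes for cortistatin, a relative of somatostatin, differed by -0.33 (adjusted p = 0.186 in limma). For Pyy, a relative of NPY, the brighter probe differed by 0.63 (adjusted p = 0.242) and the other by 0.16 (adjusted p = 0.552). Galp, a relative of galanin, differed by 0.83 (adjusted p = 0.387), and Nmb, which codes for neuromedin B, by -0.17 (adjusted p = 0.458).

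Of 7 markers each for excitatory and inhibitory dorsal horn neurons, all were well above background on all 8 arrays except Nos1, an inhibitory marker that was so on 5, and none was called. Excitatory markers were higher in stressed rats for 4 genes and lower for 3 (median 0.18), with differences from -0.26 for Slc17a6 to 0.41 for Rorb (adjusted p = 0.169 in limma). Inhibitory markers were higher for 2 and lower for 5 (median -0.06). Slc17a6, the vesicular glutamate transporter of excitatory neurons, was 2.48 to 2.77 in controls and 2.31 to 2.48 in stressed rats, the groups meeting at their edges (-0.26, adjusted p = 0.174 in limma). Gad1, the GABA-synthesizing enzyme of inhibitory neurons, was 2.41 to 2.55 in controls and 2.04 to 2.44 in stressed rats (-0.18, adjusted p = 0.343), and Slc32a1, the vesicular transporter of GABA and glycine, differed by 0.07 (adjusted p = 0.685). The part of these markers in the values of the neuropeptide genes was not tested.

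Several neuropeptide genes respond to neuronal activity through the cAMP response element, so the promoters in RefSeq (GRCr8, 250 bases before to 50 after the start) were searched on both strands for TGACGT and for the full palindrome TGACGTCA, which contains it. Of the 10 genes, 9 had an entry. TGACGT was found for Sst, Grp and Vip (3 of 9, against 7.94% of 33469 promoters), and the palindrome for Sst alone (1 of 9, against 1.83%). The 30 bases around each match are shown, with the match in capitals, from chr11:90461537-90461566 for Sst, chr18:61658556-61658585 for Grp, where the motif reads on the other strand, and chr1:44470371-44470400 for Vip. The 3 genes with a match differed between stressed and control rats by -0.31, 0.28 and -0.09, in no common direction and with none called.
Sst promoter: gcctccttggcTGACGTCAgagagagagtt
Grp promoter: cgctatagggagACGTCAgtgtgctcaggt
Vip promoter: ggatcaccactgTGACGTctttcgaggagc

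**Figure D5:**
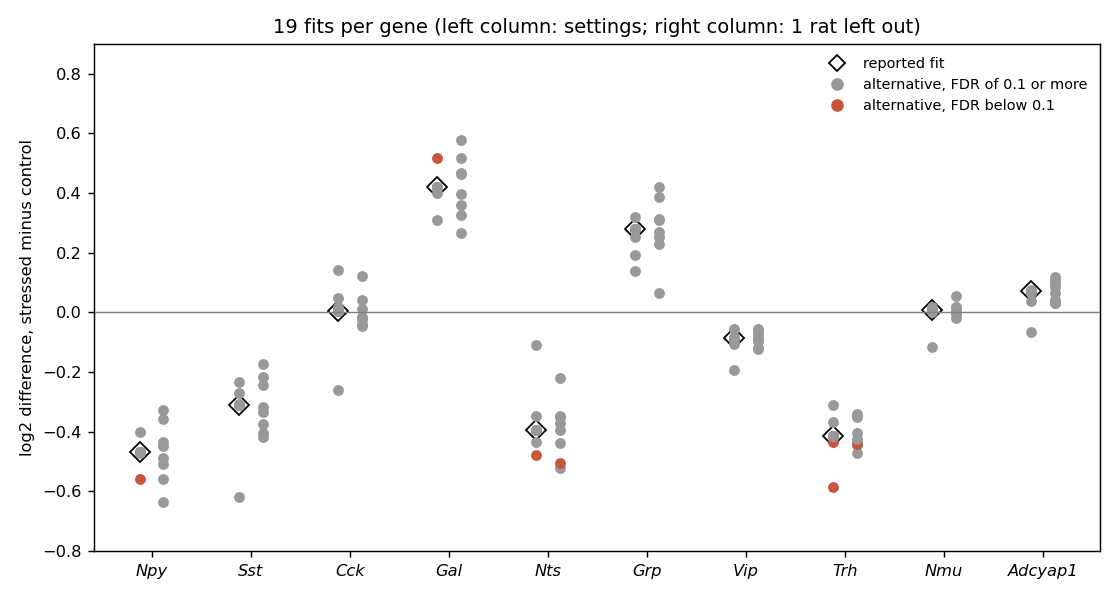
Log2 difference, stressed minus control (y axis), for each of the 10 genes in 19 fits. The open diamond is the fit reported here, the left column of dots holds 10 other settings and the right column 8 fits that leave out 1 rat, with red dots for an FDR below 0.1. Npy, Sst, Nts, Vip and Trh stayed below 0 and Gal and Grp above it in all 19, and Trh passed the threshold in 5.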

How the data were processed

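RNA of 8 lumbar spinal cords was hybridized to Agilent 1-colour arrays. Per the file headers, the deposited intensity values are signals of Agilent Feature Extraction 10.7.3.1, background-subtracted and detrended within each array. The table of values is the same signal rounded. Neither was scaled between arrays. Here each array's 75th percentile was subtracted from its log2 signals, outlier spots were left out and the spots of a probe averaged. Probes well above background on at least 4 arrays were tested with limma 3.58.1 (lmFit and eBayes, no covariate) in R 4.3.3 with the data.table package (version 1.17.8), after a test on simulated data, and adjusted by Benjamini-Hochberg over all 23678 probes. The call was at FDR below 0.1, a threshold the study used. Single values were also compared by an exact two-sided permutation test. The 4 numbered samples of a group are separate rats by the methods of the study.

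All 10 genes were named, with the brightest probe standing for a gene. Of the 3 pathway lists, genes that passed and the 4 of smallest p were named. The members and the lists were chosen with earlier results of these data known. Alternatives were normexp with an offset of 50, quantile normalization, the table of values, 2 other filters, a variance trend with robust estimation, array weights, a replicate block, a covariate for the 5′ minus 3′ difference, 1 probe per symbol and leaving out each rat. The number of arrays limits the precision. The miRNA arrays and the quantitative PCR were not analysed here.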

Additional observations from a re-analysis of the deposited data

Results flagged for a closer look

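In 4 of 50 groups of 4 rats tested for a value far from the other 3, the gap to the nearest rat divided by the range passed the critical value of 0.829. Chance would give about 1 in 20, which is 2.5 groups. That number is only a rough guide. The groups share the same rats, some genes enter with both probes, and the list genes were named by their p-values in these data. All 4 concerned control rat 2. Its Cck signal was above that of the other controls, with a gap of 0.864 of the range, and its Nts signal below, with a gap of 0.854. Among the genes of the pathway lists, its Ntsr2 signal was high, with a gap of 0.925, and its Cpe signal low, with a gap of 0.904. The cause was not tested.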

How the results depend on the processing

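Of 180 comparisons of a member's difference with an alternative, 160 kept direction and side of the threshold, 9 crossed it and 11 turned sign. The signs that turned were those of Cck, Nmu and Adcyap1. Cck was -0.26 with the 5′ minus 3′ covariate, and -0.019, -0.015, -0.022, -0.044 and -0.037 without stressed rat 1, stressed rat 2, control rat 1, control rat 3 and control rat 4 (up to 0.12, without control rat 2, when 1 rat was left out, and 0.14 with array weights). Nmu was -0.12 with quantile normalization and -0.00052, -0.020 and -0.0030 without stressed rat 2, stressed rat 4 and control rat 1, and up to 0.054 without stressed rat 3. Adcyap1 was -0.067 with quantile normalization. The number of members called was 1 with quantile normalization, no filter and the filter on all 8 arrays, 4 with array weights (Npy, Gal, Nts and Trh), and 0 to 2 on leaving out 1 rat. Of all tested probes, 5.28% were called with quantile normalization, 9.92% with no filter and 4.9% with the filter on all 8 arrays. The share was 50.6% with array weights and 42.4% without control rat 2, and it applies to the other lists below as well. The median of the members was -0.15 with quantile normalization and -0.11 with the covariate. The receptor count was 0 with normexp, 9 with array weights and 0 to 6 on leaving out 1 rat, and the receptor median was -0.23 with quantile normalization. The processing count was 10 with array weights and 0 to 8 on leaving out 1 rat, and its median was -0.059 to 0.043 on leaving out 1 rat. The related peptide count was 6 with array weights and 0 to 3 on leaving out 1 rat. All highest counts on leaving out 1 rat were those without control rat 2. The causes were not tested. The numbers of probes called were 215 with normexp, 3010 with no filter, 2393 with the covariate and 0 to 10036 on leaving out 1 rat, against 885.

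The correlations of same-numbered deviations were 0.095, 0.120, -0.087 and 0.305. Those of differently numbered rats ran from -0.402 to 0.357. These values cannot decide whether the replicate numbers pair the rats, and the reported fit used no pairing. With the replicate block no probe passed, and the receptor and processing counts were 0. Trh then had an adjusted p of 0.211.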
